A study of Mus musculus with 9 samples.

Results

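Kidneys of Trex1-/- mice given PBS were compared with kidneys of wild-type mice to ask which kidney cell types and pathways differ when TREX1 is missing, beyond the interferon genes. The comparison holds 6 of the 9 libraries of the series, 3 per group, and 16646 of the 54532 genes in the count files had enough reads to be tested. The values are read pairs of poly(A)+ RNA from whole kidney, counted per gene and given here as CPM, counts scaled to a common library size. The Trex1-/- mice were on a C57BL/6J background, came from matings of heterozygous parents and were 1 month old when daily intraperitoneal injection of the PBS vehicle began, and their kidneys were taken after 2 weeks. The wild-type mice, also C57BL/6J, were purchased, and their age is given only as a range of weeks at purchase. Neither an injection nor their age when the kidneys were taken is given in the sources used here. Breeding site, age, injection and genotype therefore cannot be told apart in this comparison, and the groups also differed in sex-linked reads, as described below. The other 3 libraries came from Trex1-/- mice treated with the STING antagonist SN-011 and entered the model to share its estimate of the spread, which changes the number of calls. The labels do not say whether each library is a separate animal, so the p-values measure the spread between libraries.

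TREX1 is an exonuclease that degrades DNA in the cytosol. Without it, this DNA activates the sensor cGAS and its adaptor STING, which induce type I interferon, and Trex1-/- mice develop inflammation in several organs. The kidney filters blood through glomeruli, whose podocytes hold back protein, and recovers sugars, salts and amino acids along the proximal tubule, the thick ascending limb and the distal segments. Resident macrophages lie between the tubules, and plasma cells secrete immunoglobulin that tubular epithelium can carry into the urine.

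The libraries held 16118813 to 21928965 counts, and TMM scaling factors ran from 0.926 to 1.06. Kidney markers were present in each of the 6 libraries: the 20 podocyte markers summed to 1316 to 1412 CPM in wild type and 1163 to 1292 CPM with PBS, and the 13 thick ascending limb markers to 11182 to 13527 and 10044 to 10879 CPM. Among markers of other tissue, 12 adrenal genes summed to at most 8.30 CPM, 8 pancreas genes to at most 0.316 CPM, 10 skeletal muscle genes to 19.7 to 29.8 CPM in wild type and 15.8 to 26.8 CPM with PBS, and 10 liver genes, some of which the kidney also expresses, to 51 to 118 and 134 to 211 CPM. The 15 adipocyte genes summed to 1993 to 2165 CPM in wild type and 2110 to 4468 CPM with PBS, most of it from Pck1, which the proximal tubule also expresses, and 13 of the 14 tested were below 0 (median -0.68, 0 called). Adipoq, a fat cell marker, held 9.81, 5.24 and 19.5 CPM in wild type and 7.49, 3.04 and 8.76 CPM with PBS. Fabp4, another gene of that list, held 138, 98.5 and 206 CPM in wild type and 119.5, 76.8 and 113 CPM with PBS. Both were present in every library and highest in wild-type replicate 3, and the part of fat in the results was not tested. The groups differed in sex-linked transcripts. Y-linked reads were present in 3 of 3 PBS libraries and in wild-type replicate 3, at 153 to 176 CPM, while wild-type replicates 1 and 2 held Xist instead, at 465 and 503 CPM. The calls are therefore also given from a fit with a Y-linked term, a covariate for the presence of Y-linked reads. Wild-type replicate 3 thus serves as the only wild-type library of the same kind as the PBS libraries, and its value is named for some of the genes in which it stands apart. Trex1 itself (ENSMUSG00000049734, chromosome 9, 109057933 to 109059734, minus strand, genome build GRCm38) was listed at 0 counts in all libraries, and its 1147 exonic bases lie entirely (100%) inside exons of the neighbour Atrip. The counts therefore do not check the genotype.

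Of the 16646 genes, 313 (1.88%) were called, 240 higher (1.44%) and 73 lower (0.439%) in Trex1-/- PBS kidneys at an edgeR adjusted p under 0.05. The count depended on the libraries fitted: it was 751 (466 higher and 285 lower) when the SN-011 libraries were left out, 774 (305 lower) without SN-011 replicate 2 alone and 153 (12 lower) without PBS replicate 2. At an unadjusted p under 0.05 there were 2532. A list of 341 interferon genes, made of a module that the study derived from other cells and of interferon gene families chosen by name, held 147 of the 240 higher genes, 52.9% of its 278 tested members, and 0 of the 73 lower ones. Outside this list, 93 of 16368 tested genes were higher (0.568%) and 73 were lower (0.446%), and these are described below. The list does not hold every gene that interferon can induce. The 3 PBS libraries lay beyond the 3 wild-type libraries for each of these 166 genes, against 13.0% (higher) and 12.3% (lower) of all tested genes. The 166 genes were picked by their adjusted p in the same libraries, which favours separated genes, so this separation adds no support to the calls. With the Y-linked term, 151 of all tested genes were higher (0.907%), of which 35 were outside the list (0.214%), and 47 outside it were lower (0.287%). Of the calls without the term, 31 of the 93 and 20 of the 73 remained. Low genes can pass the filter on low counts only through the group in which they are high, which favours a difference. Of the 93 higher genes, 20 were under the count minimum, about 0.581 CPM, in at least 1 wild-type library and so entered through Trex1-/- libraries, among them Ubd, Olfr56, Gm5431, Serpina3f, Igkv10-96, Igkv1-88, Iglv1, Gm15610, Ms4a6d, Cd3g, Ccl7 and Pla2g4c. Of the 73 lower genes, 5 were under it in at least 1 PBS library, among them Clic6, Gm40663 and Kcne1l. The calls of these genes are given below as values and add no support to the groups they belong to.

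**Figure D1:**
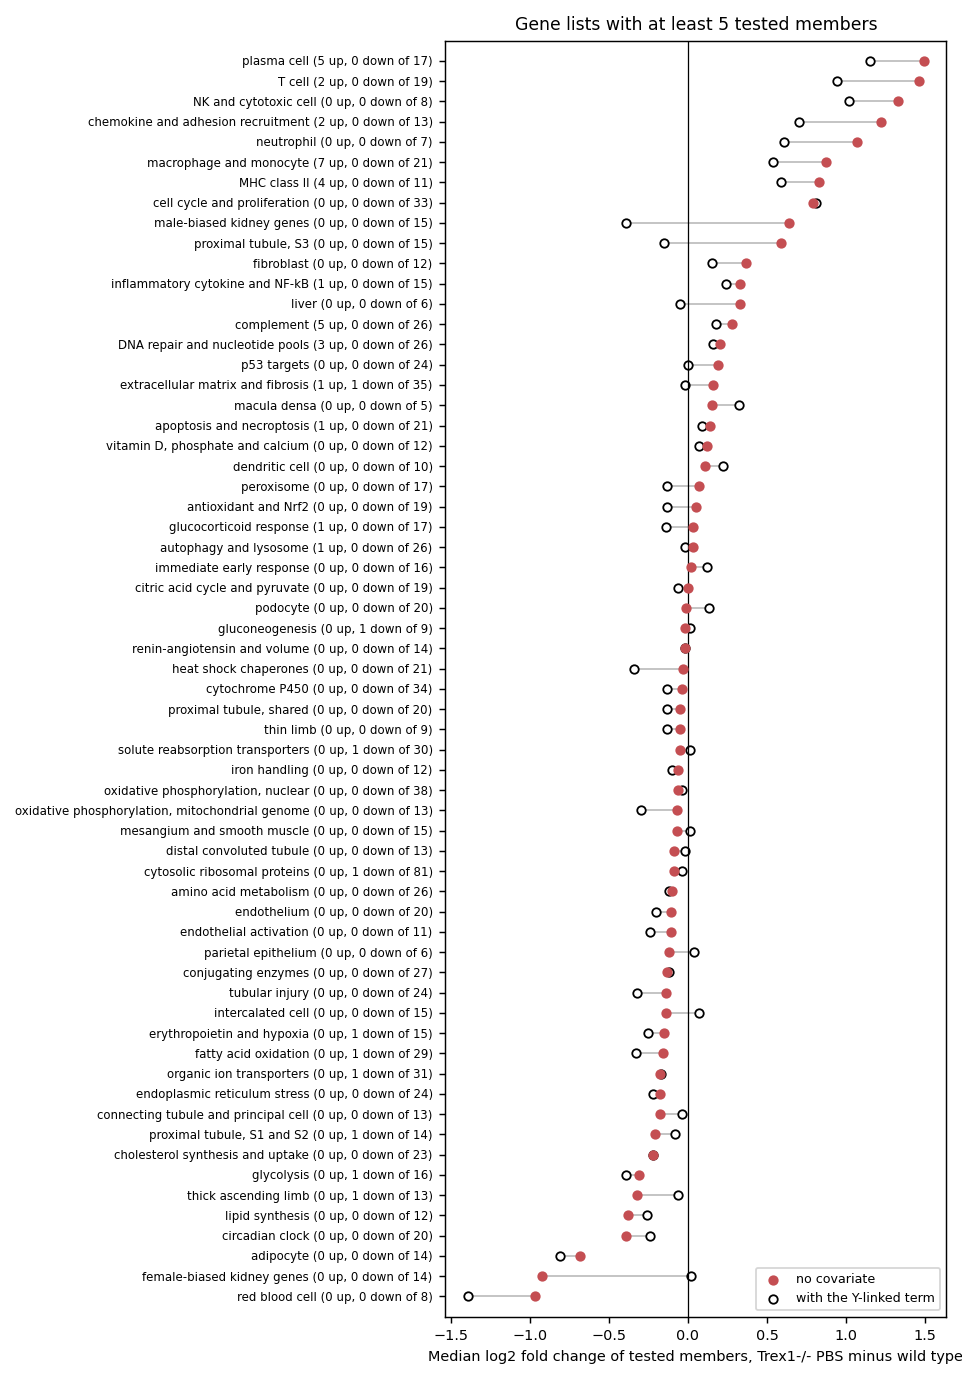
Median log2 fold change (Trex1-/- PBS minus wild type) of the tested members of each gene list with at least 5 tested members, without a covariate (filled) and with the Y-linked term (open); each label gives the members called higher and lower. Plasma cell, T cell and NK cell lists lie farthest to the right in both fits, and 5, 8 and 6 of their tested members entered the test through Trex1-/- libraries. Such members favour a rise, and the place of these lists without them was not examined. The lists of sex-biased genes and of the proximal tubule S3 segment move toward or across 0 with the term.

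The J chain and 4 immunoglobulin genes were higher in Trex1-/- PBS kidneys, while the other 12 tested plasma cell genes were not called. Of 18 plasma cell genes, 17 were tested and 5 were called higher (Jchain, Ighg2b, Igha, Igkc and Iglv1), with a median log2 fold change of 1.49 over the tested members and 1.15 with the Y-linked term, against 0.0028 over all tested genes. Of the 17, 5 were under the count minimum in at least 1 wild-type library, Iglv1 among them, and 4 of the other 12 were called. Igha, the constant region of the IgA heavy chain, held 33.3, 15.1 and 40.7 CPM in wild-type replicates 1, 2 and 3 and 137, 106 and 113 CPM in the PBS libraries. No PBS library overlapped a wild-type library, and wild-type replicate 2 was the lowest. Igha was higher by 2.00 in log2 units (SE 0.365, adjusted p 0.0202, edgeR), and by 1.45 in the fit with the Y-linked term (adjusted p 0.0399). Jchain (ENSMUSG00000067149, chromosome 5, 88519809 to 88527891, minus strand), which joins IgA and IgM into polymers, went from 4.81, 2.67 and 5.55 CPM to 18.9, 16.2 and 16.4 CPM, a difference of 1.99 (SE 0.355, adjusted p 0.0175). Igkc, the kappa light chain, rose by 1.96 (adjusted p 0.0102) and Ighg2b, an IgG heavy chain, by 2.35 (adjusted p 0.00352). Both stayed called with the Y-linked term, as did Jchain and Igha.

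Pigr (ENSMUSG00000026417, chromosome 1, 130826684 to 130852249, plus strand) encodes the polymeric immunoglobulin receptor, by which epithelial cells take up J chain-containing IgA and IgM and release them at their apical side. Wild-type libraries held 41.6, 62.1 and 62.3 CPM and PBS libraries 425, 428 and 403 CPM, or 55.4 ± 11.9 against 419 ± 13.5 CPM (mean and SD, n = 3 each). The groups were far apart and each was narrow. Pigr was higher by 2.92 (SE 0.344, adjusted p 0.00141), and by 2.39 with the Y-linked term (adjusted p 0.00314). Several plasma cell genes that encode no immunoglobulin were not called. Xbp1, the secretory transcription factor that tubules also express, held 152, 178 and 149 CPM in wild type and 121, 109 and 112 CPM with PBS (adjusted p 0.0923), and Sdc1 held 19.8, 18.7 and 22.4 CPM in wild type and 19.2, 18.3 and 17.3 CPM with PBS. Mzb1, a chaperone of plasma cells, was at 2.83, 3.75 and 1.97 CPM against 4.57, 2.63 and 3.36 CPM (adjusted p 0.761). Variable segments were also among the largest rises of genes with a mean of at least 1 CPM, Igkv10-96 by 2.66 (adjusted p 0.00119) and Iglv1 by 2.48 (adjusted p 0.0113), both entering the test through Trex1-/- libraries, from 0.3 ± 0.0575 to 1.92 ± 0.241 CPM and from 0.341 ± 0.179 to 1.9 ± 0.333 CPM (mean and SD, n = 3 each). When the Y-linked term was fitted, Igkv10-96 stayed called (adjusted p 0.0108) and Iglv1 did not (adjusted p 0.0608). Igkv1-88, a variable segment under that mean, was at 0 CPM in all 3 wild-type libraries, where 3 counts stand for 0.137 to 0.17 CPM, and at 0.731, 1.17 and 1.3 CPM with PBS, and it was tested only through those libraries. Markers of B cells were scarce. Only 3 of 12 were tested, Ms4a1 among those that were not, and the 12 summed to 6.84, 8.81 and 7.98 CPM in wild type and 5.05, 5.25 and 4.66 CPM with PBS.

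**Figure D2:**
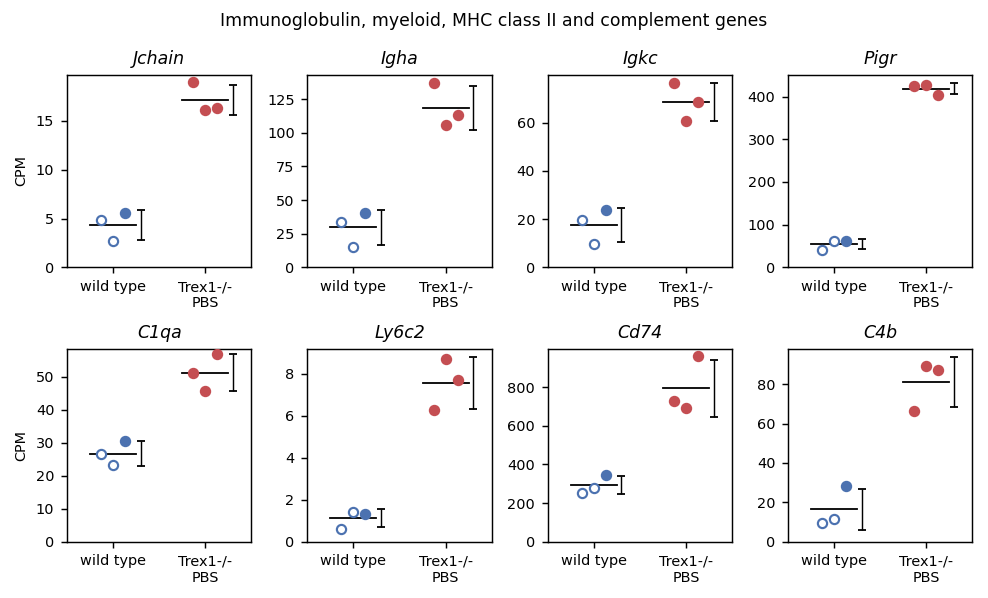
CPM of 8 genes in each library of wild type and Trex1-/- PBS, with lines for the group mean and bars for the SD (n = 3); filled points are libraries with Y-linked reads. In each panel the 3 PBS libraries lie above the 3 wild-type libraries, and for C4b the wild-type library with Y-linked reads (28.2 CPM) lies between the other wild-type libraries and the PBS libraries.

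Of the macrophage and monocyte markers, all 21 were tested, 7 were called higher (C1qa, C1qb, C1qc, Ly6c2, Fcgr1, Cd74 and Ms4a6c) and 0 lower, and the median was 0.87 (0.54 with the Y-linked term, where 3 were called, of which Ly6c2 and Fcgr1 are on the interferon list). Ly6c2, a surface antigen of inflammatory monocytes that is also on the interferon list, had 0.613, 1.4 and 1.33 CPM in wild type and 6.27, 8.7 and 7.71 CPM with PBS. All PBS libraries were well above the wild-type libraries, and it was higher by 2.76 (SE 0.358, adjusted p 0.00256). C1qa, a chain of the complement initiator C1q that kidney macrophages produce, had 26.6, 23.1 and 30.5 CPM in wild type and 51.3, 45.6 and 56.8 CPM with PBS. C1qa was higher by 0.94 (SE 0.159, adjusted p 0.0133), and the Y-linked term left 0.77 (adjusted p 0.0677). C1qc and C1qb were higher by 0.96 (adjusted p 0.0253) and 0.79 (adjusted p 0.0483). Fcgr1, the high-affinity IgG receptor and also an interferon list gene, rose by 1.69 (adjusted p 0.00721). Ly6c2 and Fcgr1 kept their calls beside the Y-linked term (adjusted p 0.0148 and 0.0461), and C1qc, C1qb and Ms4a6c did not (adjusted p 0.0899, 0.177 and 0.0837). All 21 markers were above 0. Of the 20 that reached the count minimum in all 3 wild-type libraries, 14 had all PBS libraries above all wild-type libraries (12.3% of all such genes did). Several general macrophage markers were not called. Adgre1, which encodes F4/80, held 5.99, 6.32 and 8.04 CPM in wild type and 10.7, 13.1 and 14.2 CPM with PBS (adjusted p 0.133), Csf1r held 69.7, 80.6 and 69.2 CPM in wild type and 81.4, 93.2 and 91.8 CPM with PBS (adjusted p 0.394), and Mertk held 61.6, 51.9 and 45.5 CPM in wild type and 57.9, 57.9 and 51 CPM with PBS (adjusted p 0.83). In whole kidney, more cells of a type and more RNA per cell cannot be told apart.

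Siglec1, the macrophage lectin also called sialoadhesin, is outside both lists and was higher. It held 1.18, 1.26 and 2.31 CPM in wild type and 10.7, 10.5 and 7.52 CPM with PBS, a difference of 2.61 (SE 0.293, adjusted p 0.00108) that was 2.18 with the Y-linked term (adjusted p 0.00219). Ms4a6d, a myeloid membrane protein that entered the test through Trex1-/- libraries, rose by 2.57 (adjusted p 0.00412), from 0.729 ± 0.428 to 4.24 ± 0.446 CPM (mean and SD, n = 3 each). It stayed called with the Y-linked term (adjusted p 0.0191). Further leukocyte genes were called and are named here after their values were seen. They include the integrins Itgb2 at 1.19 (adjusted p 0.0125) and Itgal at 1.22 (adjusted p 0.0161), and Cybb, the catalytic subunit of the phagocyte oxidase, at 1.01 (adjusted p 0.00659). Il2rg, the common gamma chain of cytokine receptors, rose by 1.54 (adjusted p 0.0102), Cd72 by 1.42 (adjusted p 0.015), the actin regulator Coro1a by 0.94 (adjusted p 0.0457) and the phagosomal metal transporter Slc11a1 by 1.37 (adjusted p 0.0252). Of these 7, Cybb and Itgb2 stayed called with the Y-linked term, at adjusted p of 0.0365 and 0.0421.

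Few T cell genes passed the test at their low levels. Of 22 markers, 19 were tested and 2 were called, but 8 of the 19, Cd3g among them, entered the test through Trex1-/- libraries. Of the 11 that reached the count minimum in all 3 wild-type libraries, 10 had all PBS libraries above all wild-type libraries (12.3% of all such genes did) and 1 was called. The median was 1.46, and 0.94 with the Y-linked term, where 0 were called. Cd4, the helper T cell coreceptor, had 1.08, 0.768 and 1.16 CPM in wild type and 3.53, 2.69 and 2.98 CPM with PBS, and was higher by 1.61 (SE 0.322, adjusted p 0.0329). Cd3g, a chain of the T cell receptor complex, held 0.519, 0.497 and 0.868 CPM in wild type and 1.89, 1.93 and 3.17 CPM with PBS. Cd8a, the coreceptor of cytotoxic T cells, was at 0.99, 1.72 and 2.02 CPM against 3.11, 2.92 and 6.15 CPM and was not called (adjusted p 0.148), with PBS replicate 3 the highest. The 8 tested of 15 NK and cytotoxic cell genes had 0 calls, and 6 of them were under the count minimum in at least 1 wild-type library. Among them Gzmb, a granule protease, held 0.189, 0.813 and 0.752 CPM in wild type and 1.58, 2.86 and 3.73 CPM with PBS (adjusted p 0.059). The summed T cell markers were 16.8, 21.8 and 24 CPM in wild type and 48.1, 42.4 and 65.4 CPM with PBS. Neutrophil markers were scarce, with 7 of 13 tested, 6 of these under the count minimum in at least 1 wild-type library, 0 called, and sums of 4.53, 3.97 and 9.95 CPM in wild type and 15.6, 9.11 and 11.1 CPM with PBS, so that wild-type replicate 3 lay within the PBS range. Of 12 dendritic cell markers, 10 were tested and 0 called, with a median of 0.11.

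Of 12 genes of antigen presentation on MHC class II, 11 were tested and 4 were higher, with a median of 0.83 (0.59 with the Y-linked term, where 1 was called). Cd74, the invariant chain, held 253, 280.0 and 345 CPM in wild type and 730.4, 690.3 and 963 CPM with PBS. PBS replicate 3 was the highest library and the groups did not overlap. Cd74 was higher by 1.44 (SE 0.237, adjusted p 0.0112), and the Y-linked term left 1.16 (adjusted p 0.0464). H2-Ab1, the class II beta chain, rose by 1.12 (adjusted p 0.0403), H2-DMb2, a peptide-loading chain on the interferon list, by 2.30 (adjusted p 0.0246) and Ctss, the protease that trims the invariant chain, by 1.10 (adjusted p 0.0403). These 3 were not called with the Y-linked term (adjusted p 0.146, 0.0934 and 0.109). H2-Aa and H2-Eb1 were not called at adjusted p of 0.171 and 0.291. Wild-type replicate 3 had the highest sum of the class II genes among wild type, 639, 702 and 900.0 CPM, against 1419, 1360 and 1871 CPM with PBS.

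Of 26 complement genes, 5 were called higher (C4b, C1qa, C1qb, C1qc and C3ar1) and 0 lower, 8 were below 0, and the median was 0.28. When the Y-linked term was fitted, C4b and C3ar1 stayed called, C1qa, C1qb and C1qc did not, and the median was 0.18. C4b, the classical pathway component C4, held 9.38, 11.5 and 28.2 CPM in wild type and 66.4, 89.2 and 87.4 CPM with PBS, and was higher by 2.32 (SE 0.479, adjusted p 0.0391). It was also called for the Y-linked coefficient, and with the Y-linked term its difference was 1.52 (adjusted p 0.00382). C3ar1, the receptor of the C3 fragment C3a, rose by 1.33 (adjusted p 0.00819; 0.0266 with the Y-linked term). C3 held 68, 55 and 79.4 CPM in wild type and 116, 96.6 and 90.7 CPM with PBS and was not called (adjusted p 0.0614). The regulators Cd55, Cd46 and Cd59a were not called, at adjusted p of 0.846, 0.824 and 0.331.

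Among signals that recruit or act on leukocytes, 13 of 21 chemokine and adhesion genes were tested and 2 were higher, Cxcl9 and Ccl7. Only 6 of the 13 reached the count minimum in all 3 wild-type libraries, and 0 of these 6 were called. Cxcl9, a T cell chemokine on the interferon list, went from 1.13, 1.22 and 0.579 to 12.9, 19.1 and 12.4 CPM, a rise of 3.89 (adjusted p 0.00596). Ccl7, a monocyte chemokine, was at 0, 0.181 and 0.116 CPM in wild type, where 3 counts stand for 0.137 to 0.17 CPM, and at 0.853, 1.11 and 1.99 CPM with PBS. Wild type was thus at or near its detection floor. Ccl2 held 0.141, 0.813 and 0.231 CPM in wild type and 1.4, 2.45 and 1.8 CPM with PBS and was not called (adjusted p 0.0646). Of 25 genes of inflammatory cytokines and the NF-kB pathway, 15 were tested and Tnfsf10 alone was called. Tnf, Il6 and Il1a were among the 10 that were not tested, each at most 0.934 CPM in all 6 libraries. Tnfsf10, the death ligand TRAIL, had 42.2, 49.9 and 58.1 CPM in wild type and 105, 121 and 98.4 CPM with PBS, and rose by 1.11 (SE 0.17, adjusted p 0.00705). Casp1, the inflammasome protease and an interferon list gene, rose by 2.24 (adjusted p 0.00164). It was the 1 call among 21 apoptosis and necroptosis genes. Cxcl9, Tnfsf10 and Casp1 stayed called with the Y-linked term (adjusted p 0.0365, 0.0312 and 0.0101).

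Among called genes outside the interferon list with a mean of at least 1 CPM, Ubd had the largest rise (ENSMUSG00000035186, chromosome 17, 37193892 to 37196095, plus strand). Ubd encodes the ubiquitin-like protein FAT10. It had 0.0943, 0.452 and 0.463 CPM in wild type and 3.35, 4.26 and 6.65 CPM with PBS, a difference of 3.81 (SE 0.549, adjusted p 0.0051) that was 3.21 with the Y-linked term. Zbtb16 (ENSMUSG00000066687, chromosome 9, 48654297 to 48836222, minus strand), the transcription factor PLZF, held 6.51, 3.3 and 2.6 CPM in wild type and 42.3, 42.7 and 23.8 CPM with PBS. PBS replicate 3 was the lowest of its group and still far above the wild-type libraries. Zbtb16 was higher by 3.12 (SE 0.397, adjusted p 0.00237), and the Y-linked term left 2.95 (adjusted p 0.0148). Glucocorticoids induce Zbtb16, and it was the 1 call among 17 glucocorticoid-responsive genes, whose median was 0.03. With the Y-linked term the median was -0.14 and Ddit4, a stress-induced inhibitor of mTOR, was lower, with 45.7, 43.3 and 71.4 CPM in wild type and 34.9, 34 and 41.5 CPM with PBS (adjusted p 0.0282; 0.604 without the term). Fkbp5, another gene of that list, held 111, 74.6 and 75.3 CPM in wild type and 247, 172 and 161 CPM with PBS, without overlap and not called (adjusted p 0.156), whereas Tsc22d3 held 138, 122 and 100.4 CPM in wild type and 85.9, 95 and 99.2 CPM with PBS. Among low genes that entered the test through Trex1-/- libraries, Serpina3f, a serine protease inhibitor, rose by 2.82 (adjusted p 0.044), Olfr56 by 3.20 (adjusted p 0.0131) and Gm5431, a gene with the RefSeq synonym Irgb9b8, by 2.87 (adjusted p 0.00562). The pseudogenes BC023105 and Gm15610 rose by 2.70 (adjusted p 0.0177) and 2.39 (adjusted p 0.00184), and reads shared with near-identical copies make such values uncertain. BC023105 held 0.802, 1.355 and 3.7 CPM in wild type and 9.99, 14.9 and 12.2 CPM with PBS. It was also called for the Y-linked coefficient (adjusted p 0.0454), and its difference was 2.03 with the Y-linked term. With the Y-linked term Ubd, Gm5431, BC023105 and Gm15610 stayed called (adjusted p 0.0193, 0.0204, 0.0148 and 0.0176), and Serpina3f and Olfr56 did not (adjusted p 0.108 and 0.0898). Serpina3f, Gm5431 and the immunoglobulin segments likewise belong to families of close copies.

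Few structural genes of the kidney were called. None of 20 podocyte, 20 endothelial, 15 smooth muscle and mesangial, 12 tested fibroblast or 6 parietal epithelial markers was called, with medians of -0.01, -0.11, -0.07, 0.37 and -0.12. Nphs1, the slit diaphragm protein nephrin, held 34.2, 29.3 and 28.5 CPM in wild type and 34.6, 28.7 and 27.1 CPM with PBS, and Pecam1, the endothelial adhesion molecule CD31, held 103, 92.1 and 97 CPM in wild type and 99.6, 98.1 and 95.3 CPM with PBS. The vascular adhesion gene Vcam1 was at 15.9, 12.9 and 13.9 CPM against 24.1, 27.4 and 21.9 CPM, without overlap and not called (adjusted p 0.126). Among 35 matrix and fibrosis genes, 1 rose and 1 fell. Col5a2, a fibrillar collagen chain, had 66.8, 55.6 and 48.3 CPM in wild type and 105, 118 and 90.4 CPM with PBS, a rise of 0.87 (SE 0.156, adjusted p 0.0175; 0.0213 with the Y-linked term). Vcan, the proteoglycan versican, fell from 7.64, 6.14 and 5.15 to 2.38, 2.04 and 3.17 CPM, a difference of -1.32 (adjusted p 0.0125; 0.075 with the Y-linked term). Col1a1 was at 76.1, 58.7 and 139.5 CPM in wild type and 133, 134 and 119.6 CPM with PBS (adjusted p 0.481), so that wild-type replicate 3 was the highest of the 6.

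No marker of tubular injury was called without the Y-linked term. Of 25 genes, 24 were tested and 0 were called, with a median of -0.14, and -0.32 with the Y-linked term, where 1 was called lower. That gene was Havcr1, which encodes the injury marker KIM-1. It held 1.65, 1.45 and 16 CPM in wild type and 2.44, 3.39 and 3.29 CPM with PBS, so wild-type replicate 3 stood far above the other 5 libraries (adjusted p 0.0204 with the term and 0.639 without it). Lcn2, the injury marker NGAL, was also highest in that library, with 5.42, 4.56 and 28.2 CPM in wild type and 14.2, 17.9 and 9.57 CPM with PBS (adjusted p 0.932). Summed red blood cell transcripts set the same library apart, with 655, 796 and 1904 CPM in wild type and 523, 423 and 790.0 CPM with PBS. The part of blood content or of the state of that kidney in the results was not tested.

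Segment markers of the nephron had few calls, which were falls, and none was called with the Y-linked term. Of 20 shared proximal tubule markers 0 were called, and of 14 S1 and S2 segment markers 1 was lower. That was Slc5a2 (ENSMUSG00000030781, chromosome 7, 128265657 to 128272430, plus strand), which encodes the glucose transporter SGLT2. It held 416, 399.5 and 359 CPM in wild type and 236, 255 and 225 CPM with PBS, so every PBS library lay well below the wild-type libraries. It fell by 0.71 on the log2 scale (SE 0.126, adjusted p 0.0163), and the value with the Y-linked term was -0.58 (adjusted p 0.0701). Lrp2, the endocytic receptor megalin, held 2291, 2285 and 1974 CPM in wild type and 1630, 1869 and 1430 CPM with PBS (adjusted p 0.213). In the thick ascending limb, 12 of 13 markers had values below 0 and 1 was called. Cldn19, a claudin needed for magnesium and calcium recovery there, was at 65.8, 88.7 and 71.3 CPM in wild type and 41.5, 47.1 and 50.4 CPM with PBS, a fall of 0.70 (SE 0.117, adjusted p 0.0125; 0.0596 with the Y-linked term). The list's median was -0.32, and -0.06 with the Y-linked term. Slc12a1, the cotransporter NKCC2, held 2412, 2807 and 1913 CPM in wild type and 1873, 1641 and 1833 CPM with PBS (adjusted p 0.253), and Umod, uromodulin, 5546, 6069 and 5901 CPM in wild type and 4745, 5130 and 5440 CPM with PBS (adjusted p 0.433). No gene of the 13 distal convoluted tubule, 13 tested principal cell and 15 intercalated cell markers was called. Slc12a3, the thiazide-sensitive cotransporter, Aqp2, the water channel that vasopressin regulates, and Atp6v1g3, a proton pump subunit, had adjusted p of 0.54, 0.521 and 0.846.

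Larger falls came from genes outside the segment lists. Ano3 (ENSMUSG00000074968, chromosome 2, 110655201 to 110950923, minus strand), an anoctamin membrane protein, held 19.3, 16.3 and 16.7 CPM in wild type and 3.11, 3.15 and 3.05 CPM with PBS. Its libraries were tight in both groups, and it fell by 2.49 (SE 0.208, adjusted p 0.000212; 0.000753 with the Y-linked term). Clic6, a chloride channel family protein, went from 4.95, 10.5 and 6.59 CPM to 0.244, 0.701 and 1.18 CPM, a difference of -3.37 (adjusted p 0.0337; 0.0944 with the term). Kcne1l, a potassium channel subunit on the X chromosome, differed by -1.86, from 1.71 ± 0.148 to 0.467 ± 0.151 CPM (mean and SD, n = 3 each). Like Gm40663, Kcne1l entered the test through wild type, whereas Clic6 reached the count minimum in 3 wild-type and 2 PBS libraries. Nap1l5, F5, which encodes coagulation factor V, and the noncoding or pseudogene transcripts Gm9973, Gm40663 and Gm43031 were also among the 12 largest falls of genes with a mean of at least 1 CPM, as were Fbp2, Ppp1r3c and Rpl29. Nap1l5 was lower by 2.16 and F5 by 1.70 (adjusted p 0.0436 and 0.0189). In Nap1l5, F5 and these 3 transcripts wild-type replicate 3 lay closer to the PBS libraries than the other wild-type libraries did, as in Nap1l5 with 10.5, 9.35 and 2.89 CPM in wild type and 2.01, 1.34 and 1.74 CPM with PBS. None of these 5 was called with the Y-linked term. Other called falls, named after their values were seen, included Slc14a1, a urea transporter, at -1.31 (adjusted p 0.015), the growth factor-binding protein gene Igfbp5 at -0.60 (adjusted p 0.0354), and the transcription factor Maf at -0.42 (adjusted p 0.0394). The secreted inhibitors of activin Fst and Fstl3 fell together, by 1.22 (adjusted p 0.0118) and 1.28 (adjusted p 0.00204), and the collecting duct signal Wnt9b by 1.38 (adjusted p 0.041). Of these 6, Igfbp5, Fstl3 and Wnt9b stayed called with the Y-linked term (adjusted p 0.0133, 0.0132 and 0.0221), and Maf, Slc14a1 and Fst did not (0.0502, 0.0699 and 0.0647).

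**Figure D3:**
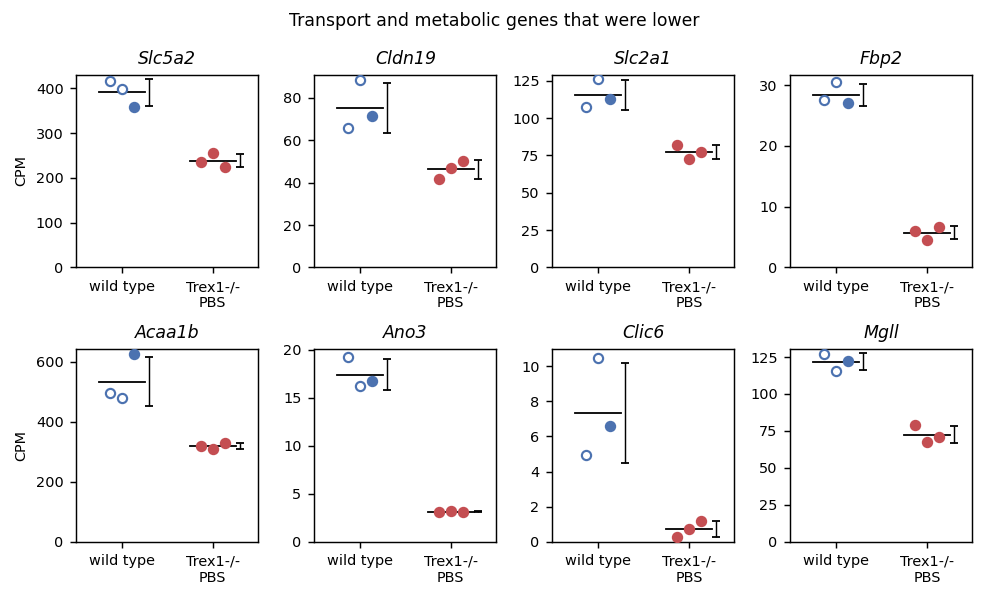
CPM of 8 transport and metabolic genes in each library of wild type and Trex1-/- PBS, with lines for the group mean and bars for the SD (n = 3); filled points are libraries with Y-linked reads. Every PBS library lies below every wild-type library, as for Ano3 with 16.3 to 19.3 CPM in wild type and 3.05 to 3.15 CPM with PBS.

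In sugar metabolism, 1 glycolytic gene was called lower, and the others had values of the same sign. All 16 had a log2 fold change under 0, with a median of -0.31 and -0.39 with the Y-linked term, and 9 of 16 did not overlap between the groups (12.3% of all tested genes were lower without overlap). Slc2a1, the basolateral glucose transporter GLUT1, held 107, 126 and 113 CPM in wild type and 82.2, 72.9 and 77.2 CPM with PBS and fell by 0.58 (SE 0.11, adjusted p 0.0251; 0.0898 with the term). Pfkl, the liver-type phosphofructokinase, was at 206, 210.2 and 308 CPM against 136, 133 and 158 CPM and was not called (adjusted p 0.0856), nor was Pkm at 694, 662 and 657 CPM in wild type and 465, 424 and 504 CPM with PBS (adjusted p 0.108). Wild-type replicate 3 was the highest of the 6 libraries for 9 of the 16 genes, among them Ldha with 845, 847 and 1423 CPM in wild type and 808, 839.5 and 1061 CPM with PBS (adjusted p 0.7). Fbp2 (ENSMUSG00000021456, chromosome 13, 62836877 to 62858422, minus strand), a fructose-1,6-bisphosphatase, held 27.5, 30.4 and 27.1 CPM in wild type and 5.91, 4.5 and 6.65 CPM with PBS. The wild-type libraries were close to each other, and the fall was 2.32 (SE 0.368, adjusted p 0.00911; adjusted p 0.0193 when the Y-linked term was fitted). It was the 1 call among 9 gluconeogenesis genes. Ppp1r3c, a glycogen-targeting subunit of protein phosphatase, was lower by 1.72 (adjusted p 0.0413; 0.108 with the term). Epo, the hormone erythropoietin, heads the list of hypoxia genes that also holds Slc2a1, and it was at 8.16, 4.33 and 11 CPM in wild type and 2.38, 1.23 and 2.05 CPM with PBS without being called (adjusted p 0.0988).

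Of 30 fatty acid oxidation genes, 29 were tested and Acaa1b alone was called without the Y-linked term. It encodes a peroxisomal thiolase. It held 495, 481 and 627 CPM in wild type and 319.7, 308 and 330.4 CPM with PBS, a fall of 0.74 (SE 0.122, adjusted p 0.0112; adjusted p 0.0176 when the Y-linked term was fitted). The median of the list was -0.16, and -0.33 with the Y-linked term, where 3 were lower. The others were Ehhadh, a peroxisomal enzyme, with 530.3, 510.3 and 897 CPM in wild type and 606, 616 and 541 CPM with PBS, and Decr1, a mitochondrial reductase, with 159, 147 and 255 CPM in wild type and 171, 164 and 152 CPM with PBS, both highest in wild-type replicate 3. Of the 29, 9 were called for the Y-linked coefficient, against 3.65% of all tested genes. None of 23 cholesterol or 12 lipid synthesis genes was called, with medians of -0.22 and -0.38 (-0.22 and -0.26 with the Y-linked term). Of these, 11 and 7 were lower without overlap between the groups, against 12.3% of all tested genes. Among called genes named after their values were seen, Mgll, the lipase of monoacylglycerols, fell from 122 ± 5.71 to 72.4 ± 5.75 CPM (mean and SD, n = 3 each), a difference of -0.75 (adjusted p 0.00297). Pla2g4c, a phospholipase, rose from 0.254 ± 0.0829 to 1.03 ± 0.0925 CPM (mean and SD, n = 3 each), and it was tested only through Trex1-/- libraries. The cholesterol exporter Abca1 differed by -0.82 (adjusted p 0.0254; 0.0502 with the term). The pyrimidine enzyme Dpys differed by -1.11 (adjusted p 0.00141), the alanine aminotransferase Gpt2 by -0.86 (adjusted p 0.0119), the oxoglutarate dehydrogenase-like Ogdhl by -1.69 (adjusted p 0.0163) and the kynurenine aminotransferase Kyat3 by -1.38 (adjusted p 0.00801). Mgll, Dpys, Gpt2, Ogdhl and Kyat3 stayed called with the Y-linked term. Kyat3 held 141, 138 and 71 CPM in wild type and 47.6, 41.6 and 45.7 CPM with PBS. Its difference was -1.01 with the term and -0.66 among libraries with Y-linked reads. Ogdhl was also lowest of wild type in replicate 3, at 8.45 CPM, and its difference was -1.1 with the term. Upp2, a uridine phosphorylase, rose, from 11.8, 13.7 and 18.3 to 42.4, 33.4 and 31.1 CPM, by 1.29 (SE 0.196, adjusted p 0.00705; 0.0217 with the term).

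Mitochondrial respiration showed no call. None of 38 nuclear and 13 mitochondrially encoded subunits of oxidative phosphorylation was called, with medians of -0.06 and -0.07. With the Y-linked term the medians were -0.04 and -0.3, and 0 of the 13 mitochondrially encoded subunits were above 0. Ndufs1, a complex I subunit, held 277, 269 and 284 CPM in wild type and 279, 280.3 and 302 CPM with PBS. Also without a call were 19 citric acid cycle genes (median -0.00), 34 cytochrome P450 genes (-0.04), 21 heat shock chaperones (-0.03), 24 endoplasmic reticulum stress genes (-0.18) and 20 circadian clock genes (-0.39). In the fit with the Y-linked term their medians were -0.06, -0.13, -0.34, -0.22 and -0.24. With the Y-linked term 3 of the endoplasmic reticulum stress genes were lower, among them the chaperone Hspa5, which held 656, 788 and 900.3 CPM in wild type and 512, 545 and 598 CPM with PBS (adjusted p 0.0127 with the term and 0.197 without it). In all, 21 of the 69 lists had at least 1 called member, 47 had tested members and none called, and 1 had no tested member. A missed call does not show that a list's genes were equal between the groups.

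Several lists moved with the sex-linked reads. The 15 genes with higher expression in male mouse kidney summed to 8233, 7713 and 15308 CPM in wild-type replicates 1, 2 and 3 and to 11611, 17116 and 17518 CPM with PBS, so that wild-type replicate 3 lay within the PBS range. Their median was 0.64 without and -0.39 with the Y-linked term, and 13 of 15 were called for the Y-linked coefficient itself, against 3.65% of all tested genes. The 14 tested female-biased genes had a median of -0.92 without and 0.02 with the term. The S3 segment of the proximal tubule, whose gene expression differs between the sexes in mice, had a median of 0.59, which became -0.15 with the term. Its transporter Slc7a13 held 2.26, 8.99 and 506 CPM in wild type and 489.9, 808 and 765 CPM with PBS. The 33 cell cycle genes showed another pattern. Their median was 0.79, 31 were above 0 and 0 were called, and the sums were 346, 340.0 and 576 CPM in wild type and 490.0, 514 and 564 CPM with PBS, the highest of the 6 being wild-type replicate 3. The cell cycle median was 0.81 with the Y-linked term (28 of 33 above 0) and 0.19 in a fit of the 5 libraries with Y-linked reads alone, 1 of them wild type. Mki67, a marker of dividing cells, had 2.5, 3.3 and 9.49 CPM in wild type and 14.8, 15 and 16 CPM with PBS (adjusted p 0.293).

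**Figure D4:**
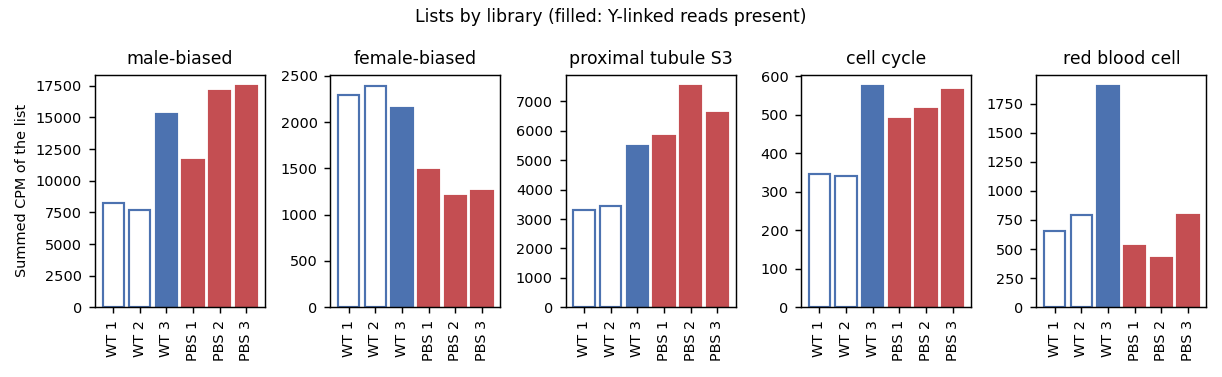
Summed CPM of 5 gene lists in the 3 wild-type (blue) and 3 PBS (red) libraries; filled bars are libraries with Y-linked reads. For the male-biased, S3 and cell cycle lists wild-type replicate 3 is close to the PBS libraries, and for red blood cell genes it stands alone at 1904 CPM.

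The largest fall, that of Rpl29, lay near Trex1 on chromosome 9. Rpl29 (ENSMUSG00000048758, chromosome 9, 106429454 to 106431568, plus strand), a protein of the large ribosomal subunit, is 2.63 Mb from Trex1. It held 115, 117 and 131 CPM in wild type, 5.12, 4.96 and 4.97 CPM in the PBS libraries and 5.27, 5.51 and 2.73 CPM in the 3 SN-011 libraries, which are also Trex1-/-. All 6 Trex1-/- libraries lay far below the wild-type libraries. The difference between PBS and wild type was -4.59 (SE 0.206, adjusted p 8.09e-06; 1.4e-06 with the term). The other 80 cytosolic ribosomal protein genes had no call, and the median of all 81 was -0.09. Rpl29 has processed copies elsewhere in the genome and only uniquely mapped read pairs were counted, so its level is uncertain. Within 20 Mb of Trex1, 336 genes outside the interferon list were tested, of which 9 were lower (2.68%) and 2 higher (0.595%). On the rest of chromosome 9, 1 of 588 was lower (0.17%), and on the other chromosomes 63 of 15444 were (0.408%). With the Y-linked term 6 of the 336 were lower and 2 higher.

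Besides Rpl29, Acaa1b and the uncharacterised transcripts 3000002C10Rik, 6430571L13Rik and Gm16010, the lower genes of the region included Cish, Mapkapk3 and Slc22a13. Cish, a suppressor of cytokine signalling 1.76 Mb away, differed by -1.17 (adjusted p 0.0484) and Mapkapk3, a stress kinase 1.79 Mb away, by -0.75 (adjusted p 0.00559). Acaa1b, described above, and Slc22a13, an organic anion transporter at -0.47 (adjusted p 0.0403), lay 10.09 and 10.14 Mb away. Of these, Mapkapk3 stayed called with the Y-linked term, and Cish and Slc22a13 did not (adjusted p 0.0365, 0.202 and 0.0965). The genes that rose were Atrip and Slc38a3. Atrip (ENSMUSG00000025646, chromosome 9, 109057933 to 109074124, minus strand), the partner of the DNA damage kinase ATR, shares all exonic bases of Trex1. It held 16.1, 15.3 and 14.4 CPM in wild type, 46.6, 48.5 and 40.3 CPM with PBS and 37.1, 37.6 and 37.2 CPM with SN-011, and was higher by 1.56 in PBS than in wild type (SE 0.0962, adjusted p 4.9e-05). Slc38a3, a glutamine transporter of the proximal tubule 1.4 Mb from Trex1, held 59, 70.3 and 62.6 CPM in wild type, 158, 134 and 123 CPM with PBS and 98.8, 116 and 109 CPM with SN-011, a rise of 1.11 (SE 0.116, adjusted p 0.000658; 0.0041 with the term). Among 26 tested genes of DNA repair and nucleotide pools, Atrip was called higher with Samhd1, which hydrolyses deoxynucleotides, at 0.90 (adjusted p 0.00153) and Adar, an RNA-editing enzyme, at 1.08 (adjusted p 0.00141), both on the interferon list. The Y-linked term removed none of the 3 calls (adjusted p 0.000242, 0.0108 and 0.00881). The origin of the DNA around Trex1 in these mice is not given in the sources used here, and its part in these values was not tested.

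**Figure D5:**
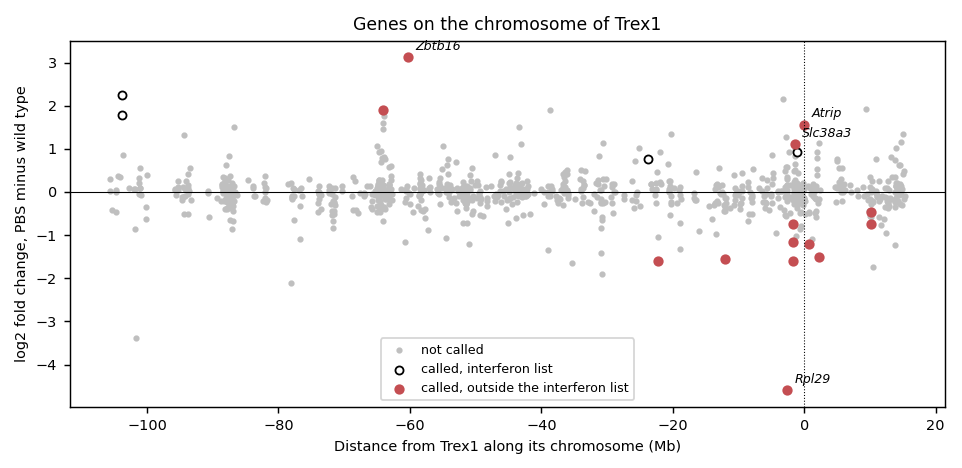
Log2 fold change (Trex1-/- PBS minus wild type) of each tested gene on the chromosome of Trex1 against its distance from Trex1 in Mb. Called genes outside the interferon list (red) that are lower gather near Trex1, with Rpl29 the lowest at -4.59, and called interferon genes are shown as open circles.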

How the data were processed

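The authors sequenced poly(A)+ RNA of whole mouse kidney with strand-specific libraries and paired reads, trimmed the reads, aligned them with HISAT2 to mm10 and counted uniquely mapped read pairs per gene with featureCounts. They deposited raw counts, 1 file per library. The gene annotation, the strand setting and the tool versions are not given in the sources used here. Without a known strand setting, reads of overlapping genes on opposite strands cannot be assigned with certainty, and pairs shared by near-identical copies are lost.

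From these counts, genes were kept by the edgeR (4.0.16, R 4.3.3) filter with a minimum count of 10 and a minimum total of 15, libraries were scaled by TMM, and the quasi-likelihood F test was fitted to all 9 libraries with the contrast of Trex1-/- PBS minus wild type. P-values were adjusted by the Benjamini-Hochberg method over 16646 genes, and a gene was called at an adjusted p under 0.05. A fit with a term for Y-linked reads was made for every result. CPM are TMM-scaled. Symbols and positions came from GENCODE vM21 (GRCm38), which matched 54495 of 54532 identifiers. The fit was tested on simulated counts with known changes. Total counts ran from 16118813 to 21928965 per library.

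Named genes are Trex1, the 12 with the largest rises and the 12 with the largest falls among called genes outside the interferon list with a mean of at least 1 CPM and no overlap between the groups, and in each list its defining member and up to 3 called members with the smallest p. Some of these genes are not reported here. Other named genes, called or not, were chosen after their values were seen. The members and the 69 lists were chosen with earlier results of these data known. Lists are described by counts and medians, without a test of the list.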

Additional observations from a re-analysis of the deposited data

How the results depend on the processing

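A total of 19 alternatives were run, and none turned the direction of any of the 80 genes named with a fold change. Of their 1520 values under these alternatives, 1196 stayed on the same side of the threshold and 324 lost the call. The calls of 21 of the 80 genes held in all 19, among them Pigr, Igkc, Siglec1, Ubd, Zbtb16, Ano3, Rpl29, Mgll and Slc38a3. The covariate for Y-linked reads removed 37 of the 80 calls and the fit of libraries with such reads 42, and leaving out 1 wild-type or PBS library removed 6 to 48. Without a filter (30892 genes tested) 707 genes were called, 420 higher and 287 lower, of which 244 and 284 were outside the interferon list. The DESeq2 Wald test called 726 (431 and 295, outside the list 249 and 293) and the edgeR exact test 686 (438 and 248, outside the list 258 and 246). A fit of the 6 libraries alone called 751 (466 and 285, outside the list 290 and 283). With the Y-linked term 198 were called (151 and 47, outside the list 35 and 47), and among libraries with Y-linked reads 249 (158 and 91, outside the list 47 and 91), where the lone wild-type library is assumed to vary like the others. Leaving out 1 library gave 153 to 774 calls, 140 to 469 higher and 12 to 305 lower, and outside the list 25 to 289 higher and 12 to 302 lower. The lowest total was without PBS replicate 2 and the highest without SN-011 replicate 2. Totals were also 157 without PBS replicate 1, 160 and 162 without wild-type replicates 1 and 2, and 457 without wild-type replicate 3. DESeq2 size factors, upper-quartile scaling and limma-voom gave 312 to 325 calls. The replicate numbers were not taken as pairs. Same-numbered deviations correlated at 0.133, -0.00809 and 0.102, and differently numbered ones at -0.128 to 0.038. A replicate block gave 312 calls (238 higher and 74 lower, outside the list 93 and 74). Of 1292 list medians 67 moved by more than the replicate spread, and of 1292 counts of called list members 345 moved by over 1.5 times. The cause of these differences was not tested. With 3 libraries per group, differences near 1 on the log2 scale can be missed. In the simulated counts, 66% of changes of 1 and 94% of changes of 2 on that scale were called, and 12 unchanged genes were called. The single wild-type library with Y-linked reads limits how far sex and genotype can be separated.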
